A study of Mus musculus with 21 samples.

Results

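Rn45s is the mouse 45S pre-ribosomal RNA gene, and the copy described here is the one assembled on chromosome 17 of build mm9. Its members are all listed crosslink positions on the plus strand between 39979938 and 39985774, an interval of 5837 nt. The interval is 1 gene, and it held between 1793 and 3007 of the 58686 to 870234 positions listed per file. A position was listed in at least 1 of the 6 files at 3328 nucleotides of the interval.

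P19, a mouse embryonal carcinoma line, was divided into chromatin, nucleoplasm and cytoplasm to map where SRSF3-GFP and SRSF7-GFP touch RNA. SRSF3 and SRSF7 are serine/arginine-rich RNA-binding proteins that act in splicing and in mRNA export. In individual-nucleotide crosslinking and immunoprecipitation (iCLIP), ultraviolet light (here 254 nm, 100 mJ/cm2) links a protein to RNA, and the end of each cDNA marks the linked nucleotide. The 6 groups are SRSF3-GFP cells in each fraction, with 4 replicates per fraction, and SRSF7-GFP cells in each fraction, with 3, in all 21 samples. The cells of every group carry a GFP fusion protein and were irradiated and fractionated, and the labels name no further treatment. Untagged cells and total RNA of the fractions were not analysed here, so binding could not be set against background or against the amount of RNA. Replicates were pooled in the files, so each group is 1 value without a spread, and no test between groups was possible. Intervals below are exact 95% intervals for counting error only.

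Ribosomal RNA is made in the nucleolus by RNA polymerase I as 1 long precursor. From its 5′ end this precursor holds an external spacer, the small-subunit 18S RNA, an internal spacer, 5.8S RNA, a further internal spacer and the large-subunit 28S RNA. Mammals carry many copies of this unit in tandem, and how reads of those copies were placed is not stated in the labels or headers. The spacers are cut away and degraded in the nucleus, and the mature RNAs leave it inside ribosomal subunits. A RefSeq table of build GRCm38 places 1 gene named for 18S RNA on chromosome 17, Rn18s-rs5, a pseudogene of 1849 nt. Its coordinates belong to a different build, so the border between spacer and 18S RNA was not placed on the mm9 interval. Positions are therefore given as distances from 39979938, counted as nucleotide 1. The sign of each value was read as the strand, and the minus strand of the interval held 2 single-cDNA positions in SRSF7 chromatin and none in the other 5 files.

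The smallest file was SRSF7 chromatin with 248498 listed cDNAs, and the largest SRSF3 chromatin with 1768665. A position is listed only where it passed the authors' threshold, so a stretch without positions is not shown to be unbound. All 3 SRSF7 headers name a setting (regionAsOne) that no SRSF3 header names. Whether peak calling differed between the proteins was not tested, and for every comparison of SRSF3 with SRSF7 below it cannot be told apart from the protein.

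Binding split along the Rn45s interval by fraction, in both proteins alike. On chromatin most cDNAs lay on the 5′ side of the locus. In both other fractions most lay on its 3′ side, and they were densest from nucleotide 4401 onward. The listed span ran from nucleotide 1 to 5110, and the sides were divided at its midpoint, nucleotide 2555 (39982492), which falls in a stretch that no file lists. Both sides are those of this span and not of the whole precursor. Which parts of the precursor they cover, and whether the interval holds all of it, was not determined. On chromatin the 5′ side held 60.4% of the SRSF3 cDNAs at Rn45s (60.2 to 60.7) and 64.0% of the SRSF7 ones (63.5 to 64.4). For SRSF3 it held 14.1% of nucleoplasm (13.8 to 14.4) and 9.49% of cytoplasm (9.25 to 9.74). SRSF7 nucleoplasm gave 22.1% (21.5 to 22.7) and SRSF7 cytoplasm 13.9% (13.7 to 14.2). The 2 chromatin files thus stood far above the other 4, with no overlap of the intervals.

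The contrast was one of height more than of the number of positions. SRSF3 chromatin had 1748 positions on the 5′ side with a mean of 57.3 cDNAs, and 1259 on the 3′ side with a mean of 52.2. SRSF3 cytoplasm had 913 positions with a mean of 5.85 cDNAs on the 5′ side and 1190 with a mean of 42.8 on the 3′ side. SRSF3 nucleoplasm lay close to cytoplasm, with 989 positions at a mean of 7.51 and 1292 at a mean of 35.0. In SRSF7 chromatin the means were nearly level, 19.8 cDNAs over 1585 positions and 16.2 over 1090. SRSF7 cytoplasm rose from a mean of 8.54 over 1038 positions to 45.1 over 1213. SRSF7 nucleoplasm rose from 4.66 over 797 positions to 13.1 over 996. Counted as positions rather than as cDNAs, the 3′ side held 41.9% and 40.7% of the Rn45s positions in SRSF3 and SRSF7 chromatin and between 53.9% and 56.6% in the other 4 files. The order of the fractions was the same, and the gap was much smaller.

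**Figure D1:**
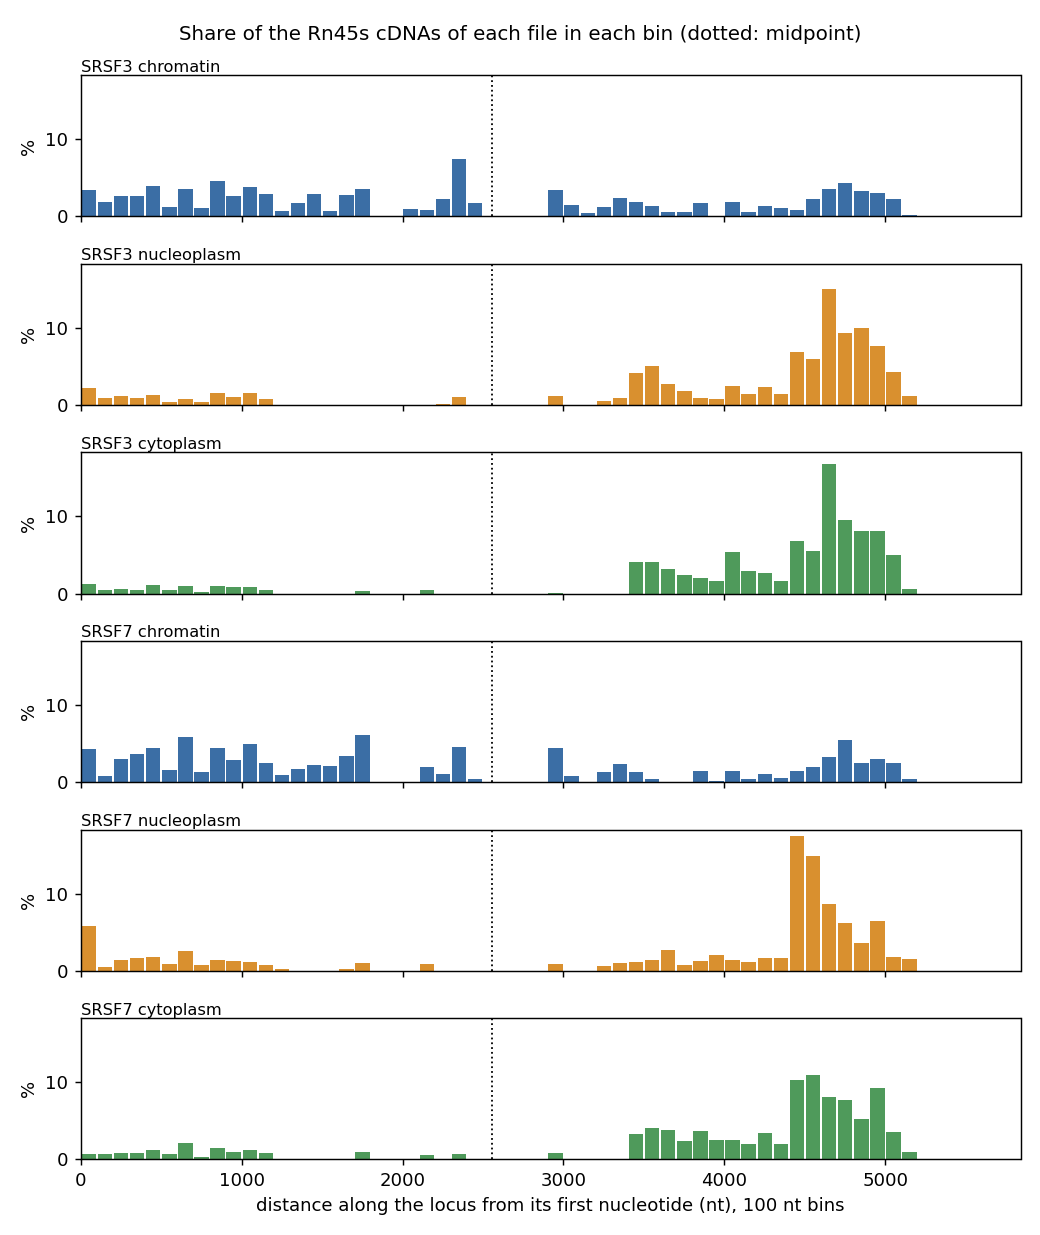
Share of the Rn45s cDNAs of each file (vertical axis, %) in each 100 nt bin along the locus (horizontal axis, nt from its first nucleotide), 1 panel per pooled file. Chromatin is spread over the whole listed span, while nucleoplasm and cytoplasm are highest after nucleotide 4400 and, apart from the first bin of SRSF7 nucleoplasm (5.82%), reach at most 2.59% per bin before nucleotide 3400.

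Walking along the locus, 6 stretches were distinguished after the profile had been seen. The first, nucleotides 1 to 1200, carried positions in all 6 files. Its share of the Rn45s cDNAs was 34.5% for SRSF3 and 39.6% for SRSF7 on chromatin, against 13.0% and 19.8% in nucleoplasm and 8.69% and 11.7% in cytoplasm. The next, nucleotides 1201 to 1800, was listed mainly in chromatin. There SRSF3 had 20748 cDNAs at 357 positions in chromatin, 11 at 3 positions in nucleoplasm and 182 at 23 positions in cytoplasm. SRSF7 had 8067 cDNAs at 369 positions in chromatin, 234 at 68 in nucleoplasm and 630 at 42 in cytoplasm. Nucleotides 1801 to 2900 held 13.4% of the SRSF3 chromatin cDNAs and 7.91% of the SRSF7 ones, and between 0.480% and 1.22% in the other files.

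From nucleotide 2901 to 3400 the 2 proteins' chromatin shares were nearly equal, at 8.88% for SRSF3 and 8.92% for SRSF7. Nucleoplasm held 2.54% and 2.43% there and cytoplasm 0.114% and 0.804%. The order turned in the following stretch. Nucleotides 3401 to 4400 held 30.02% of the SRSF3 cytoplasm cDNAs and 29.4% of the SRSF7 ones, against 10.97% and 6.73% on chromatin. In nucleoplasm this stretch separated the proteins, with 23.0% for SRSF3 and 15.1% for SRSF7. The last stretch began at nucleotide 4401 and ended with the listed span at 5110. It held 60.4% in both nucleoplasm files, 60.4% in SRSF3 cytoplasm and 55.9% in SRSF7 cytoplasm. On chromatin it held 19.7% in SRSF3 and 20.4% in SRSF7.

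No file listed a position after nucleotide 5110 (39985047), so the last 727 nt of the interval were empty in all 6 files. Inside the span, the longest stretches without a position in any file were nucleotides 2452 to 2912, 461 nt, and 1771 to 2057, 287 nt. Gaps of at least 50 nt numbered 11 with the empty end included, and 1 of them, nucleotides 3359 to 3432, lay where the fractions changed order. Why these stretches were empty was not tested, and the files give no measure of how well reads can be placed there.

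The highest bins of 100 nt followed the same division. In SRSF3 chromatin the highest bin was 2301 to 2400 with 12440 cDNAs, 7.498% of the locus (7.37 to 7.63). It was followed by 801 to 900 (4.61%), 4701 to 4800 (4.29%), 401 to 500 (3.98%) and 1001 to 1100 (3.76%). SRSF7 chromatin led with 1701 to 1800, which had 3010 cDNAs or 6.15% (5.93 to 6.36), then 601 to 700 (5.79%), 4701 to 4800 (5.40%), 1001 to 1100 (4.95%) and 2301 to 2400 (4.53%). The 5 highest bins together took 24.2% and 26.8% of the locus in these 2 files, the lowest shares of the 6.

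All 5 highest bins of each nucleoplasm and cytoplasm file lay between nucleotides 4401 and 5000. They took 48.9% in SRSF3 nucleoplasm, 49.3% in SRSF3 cytoplasm, 53.5% in SRSF7 nucleoplasm and 46.1% in SRSF7 cytoplasm. SRSF3 peaked at 4601 to 4700 in both fractions, with 14.99% of nucleoplasm (14.7 to 15.3) and 16.8% of cytoplasm (16.4 to 17.1). Next in SRSF3 nucleoplasm came 4801 to 4900 with 10.0%, 4701 to 4800 with 9.30%, 4901 to 5000 with 7.66% and 4401 to 4500 with 6.92%. The corresponding order in SRSF3 cytoplasm was 4701 to 4800 with 9.60%, 4801 to 4900 with 8.07%, 4901 to 5000 with 8.06% and 4401 to 4500 with 6.81%.

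SRSF7 peaked 1 or 2 bins closer to the 5′ end. In nucleoplasm its highest bin was 4401 to 4500 with 17.4% (16.8 to 18.0), followed by 4501 to 4600 with 14.9%, 4601 to 4700 with 8.58%, 4901 to 5000 with 6.49% and 4701 to 4800 with 6.18%. In cytoplasm it was 4501 to 4600 with 10.9% (10.7 to 11.2), then 4401 to 4500 with 10.3%, 4901 to 5000 with 9.22%, 4601 to 4700 with 8.08% and 4701 to 4800 with 7.65%. One bin at the opposite end also stood out. The first 100 nt held 5.82% of the SRSF7 nucleoplasm cDNAs at Rn45s, 978 in number, against 0.719% of SRSF7 cytoplasm, 457 in number. This bin was not particular to SRSF7 nucleoplasm, since it held 4.3% in SRSF7 chromatin and 3.43% in SRSF3 chromatin. In SRSF3 nucleoplasm and cytoplasm it held 2.20% and 1.29%.

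Single positions were taken as the 3 highest of each file, so a larger share in the file that chose them is partly built in. The 3 highest positions of SRSF7 nucleoplasm were also, in the same order, the 3 highest of SRSF7 cytoplasm, and they lay at intervals of 14 nt. They were nucleotides 4485 (39984422), 4499 (39984436) and 4513 (39984450). Nucleotide 4485 carried 895 cDNAs in SRSF7 nucleoplasm, 1071 in SRSF7 cytoplasm and 110 in SRSF7 chromatin. For SRSF3 the counts there were 364, 382 and 70. As a share of the locus this was 5.33% of SRSF7 nucleoplasm and 1.68% of SRSF7 cytoplasm, against 0.692% and 0.679% for SRSF3.

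Nucleotide 4499 had 542 and 859 cDNAs in SRSF7 nucleoplasm and cytoplasm, 87 in SRSF7 chromatin and 178, 240 and 34 in the SRSF3 files in the same order. Nucleotide 4513 had 508, 848 and 57 for SRSF7, and 260, 109 and 28 for SRSF3. Each of the 3 positions thus held a larger share of the locus in SRSF7 than in SRSF3 in every fraction. They were chosen in SRSF7 nucleoplasm and cytoplasm, and chromatin was not used to choose them.

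SRSF3 nucleoplasm and SRSF3 cytoplasm likewise had the same 3 highest positions in the same order. These were nucleotides 4667 (39984604), 4615 (39984552) and 4674 (39984611). Nucleotide 4667 carried 1073 cDNAs in nucleoplasm, 1540 in cytoplasm and 281 in chromatin for SRSF3, and 200, 582 and 79 for SRSF7. Its share of the locus was 2.74% in SRSF3 cytoplasm and 0.915% in SRSF7 cytoplasm. Nucleotide 4615 had 973, 1207 and 528 cDNAs for SRSF3 and 504, 547 and 216 for SRSF7. It ranked in the first 11 of all 6 files and held 1.85% of SRSF3 nucleoplasm and 3.00% of SRSF7 nucleoplasm, so it was not higher for SRSF3 throughout. Nucleotide 4674 had 871, 1184 and 333 for SRSF3 and 87, 203 and 33 for SRSF7.

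On chromatin both proteins had their highest position at nucleotide 2317 (39982254). There SRSF3 had 1343 cDNAs, 0.809% of its chromatin locus total, and SRSF7 had 716, or 1.46%. In SRSF3 nucleoplasm it had 254 and in SRSF7 cytoplasm 224, and it was not listed in SRSF3 cytoplasm or SRSF7 nucleoplasm. The adjoining nucleotide 2318 was next in SRSF3 chromatin with 927 cDNAs and had 397 in SRSF7 chromatin. The third of SRSF3 chromatin was nucleotide 1742 (39981679), with 625 cDNAs there, 309 in SRSF7 chromatin, 30 and 59 in the cytoplasm of SRSF3 and SRSF7, and 9 in SRSF7 nucleoplasm. SRSF7 chromatin continued with nucleotide 2948 (39982885), 488 cDNAs against 450 in SRSF3 chromatin, and nucleotide 4785 (39984722), 420 against 402.

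**Figure D2:**
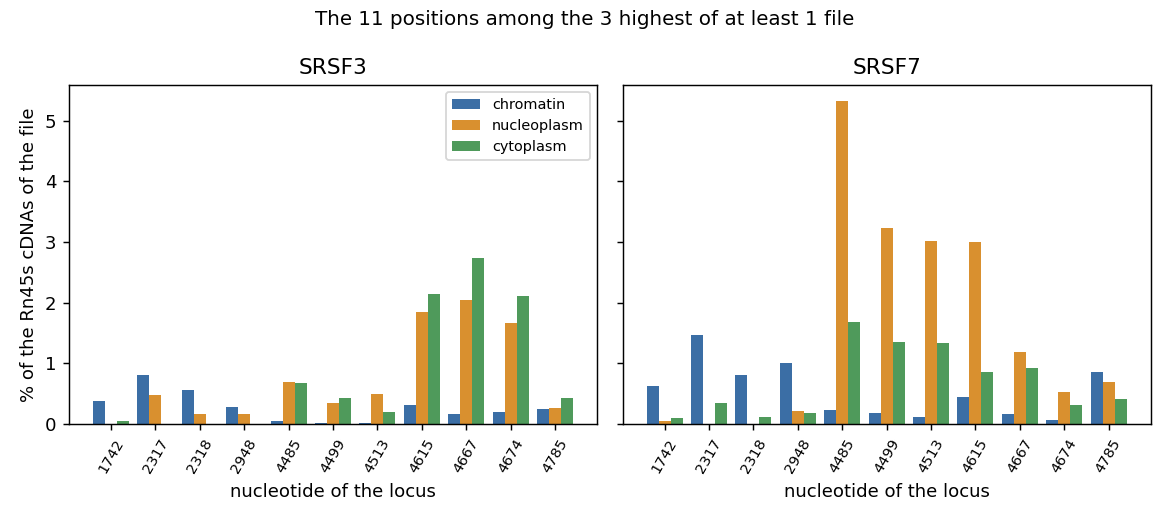
Share of the Rn45s cDNAs of each file (vertical axis, %) at the 11 positions that were among the 3 highest of at least 1 file (horizontal axis, nucleotide of the locus), with 1 bar per pooled fraction. Nucleotides 4485, 4499 and 4513 are highest in SRSF7 nucleoplasm, up to 5.33%, and nucleotides 4667 and 4674 are higher in SRSF3 than in SRSF7.

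The share of a file at single nucleotides also differed. The 10 highest positions took 3.82% of the locus in SRSF3 chromatin and 7.54% in SRSF7 chromatin. They took 11.5% and 14.9% in SRSF3 nucleoplasm and cytoplasm, and 20.7% and 9.97% in SRSF7 nucleoplasm and cytoplasm. In SRSF3 chromatin 561 positions were needed to reach 50% of the locus, and in SRSF7 nucleoplasm 94. SRSF7 nucleoplasm was also the sparsest file, with 30.7% of the interval's nucleotides listed and a median of 3 cDNAs, against 51.5% and 38 in SRSF3 chromatin.

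The profiles of the 6 files fell into 2 sets. Over the 46 bins listed in at least 1 file, Pearson's r between SRSF3 chromatin and SRSF7 chromatin was 0.83, and Spearman's rho 0.89. The 6 pairs among nucleoplasm and cytoplasm files ran from 0.64 to 0.97 (Pearson), with the highest value for SRSF3 nucleoplasm and SRSF3 cytoplasm and the lowest for SRSF3 cytoplasm and SRSF7 nucleoplasm. The 8 pairs of a chromatin file with a file of another fraction ran from 0.06 to 0.23. Chromatin of one protein was therefore more like chromatin of the other protein than like any other fraction of its own. These values describe bins of 1 transcript, which share its base composition and the placement of reads, and bins are not replicates.

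Listed nucleotides themselves were largely shared. Of the 3328 nucleotides listed in any file, 1284 were listed in all 6 and 343 in 1 file alone. Within 5 nt, 93.2% of SRSF3 cytoplasm positions had a partner in SRSF3 chromatin and 90.2% of SRSF7 cytoplasm positions one in SRSF7 chromatin. In the other direction the values were 74.5% and 79.6%. The locus is densely listed, and 65.1% of the span lay within reach of a SRSF3 chromatin position and 51.25% within reach of a SRSF3 cytoplasm position. For SRSF7 chromatin and cytoplasm these values were 61.4% and 52.5%. The shares above have to be read against those values. Between proteins, 98.95% of SRSF3 cytoplasm positions had a partner in SRSF7 cytoplasm, where 52.5% of the span was within reach.

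As a whole the locus held 9.38% of the listed cDNAs in SRSF3 chromatin (9.34 to 9.42), 16.7% in SRSF3 nucleoplasm and 21.9% in SRSF3 cytoplasm (21.7 to 22.0). In SRSF7 it held 19.7% of chromatin (19.6 to 19.9), 6.11% of nucleoplasm (6.02 to 6.20) and 17.3% of cytoplasm (17.2 to 17.4). From the highest to the lowest, the order was SRSF3 cytoplasm, SRSF7 chromatin, SRSF7 cytoplasm, SRSF3 nucleoplasm, SRSF3 chromatin and SRSF7 nucleoplasm, and no neighbouring intervals overlapped. With positions of at least 3 cDNAs the first 3 changed places, with 28.9% in SRSF7 cytoplasm, 27.8% in SRSF7 chromatin and 27.5% in SRSF3 cytoplasm. The others then stood at 25.2% in SRSF3 nucleoplasm, 19.55% in SRSF3 chromatin and 11.4% in SRSF7 nucleoplasm. The locus had been chosen as the highest of each file, so its first rank in each file is not a result. Its margin over the next locus ran from 1.17-fold in SRSF7 nucleoplasm to 4.87-fold in SRSF7 chromatin. Of the positions with at least 100 cDNAs, Rn45s held 418 of 852 in SRSF3 chromatin and 18 of 76 in SRSF7 nucleoplasm.

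Set out by side, the 5′ side alone was highest on chromatin for both proteins. It held 5.67% of all listed cDNAs in SRSF3 chromatin, 2.36% in nucleoplasm and 2.08% in cytoplasm, and 12.6%, 1.35% and 2.41% for SRSF7. The chromatin share was 2.73-fold the cytoplasm share for SRSF3, a log2 ratio of 1.45 (1.41 to 1.49), and 5.22-fold for SRSF7, a log2 ratio of 2.38 (2.35 to 2.42). The 3′ side held 3.71%, 14.3% and 19.8% for SRSF3, lowest on chromatin, and 7.10%, 4.76% and 14.9% for SRSF7, lowest in nucleoplasm. Chromatin against nucleoplasm gave a log2 ratio of -1.95 for SRSF3 (-1.96 to -1.93) and 0.58 for SRSF7 (0.54 to 0.61), so here the proteins differed in direction. Chromatin against cytoplasm gave a log2 ratio of -2.41 for SRSF3 (-2.43 to -2.40) and -1.07 for SRSF7 (-1.09 to -1.04).

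**Figure D3:**
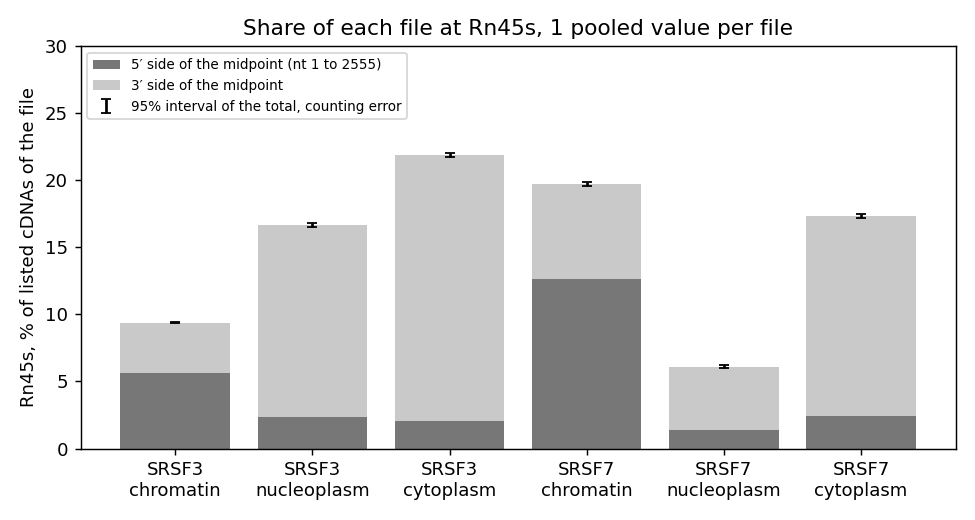
Share of the listed cDNAs of each file at Rn45s (vertical axis, %), 1 bar per pooled file, split at the midpoint of the listed span. Whiskers are exact 95% intervals of the total for counting error, and the 5′ side reaches 12.6% in SRSF7 chromatin but at most 2.41% in the 4 nucleoplasm and cytoplasm files.

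Comparing whole-locus shares, SRSF3 chromatin was below nucleoplasm with a log2 ratio of -0.83 (-0.84 to -0.82), and below cytoplasm with -1.22 (-1.24 to -1.21). SRSF3 nucleoplasm was below cytoplasm with -0.39 (-0.41 to -0.37). SRSF7 chromatin was above nucleoplasm, with 1.69 (1.66 to 1.72), and nucleoplasm below cytoplasm, with -1.50 (-1.53 to -1.48). SRSF7 chromatin and cytoplasm differed little, with 0.19 (0.17 to 0.20). The latter value turned to -0.0571 with positions of at least 3 cDNAs and stood at 0.0572 without the mitochondrial genome, so its direction depended on what was counted. SRSF3 was below SRSF7 on chromatin, with -1.07 (-1.09 to -1.06), and above it in nucleoplasm, with 1.45 (1.42 to 1.47). In cytoplasm the value was 0.34 (0.32 to 0.35), which turned to -0.0704 with positions of at least 3 cDNAs. The size of the SRSF3 differences moved with the same minimum, to -0.36 for chromatin against nucleoplasm, -0.49 for chromatin against cytoplasm and -0.13 for nucleoplasm against cytoplasm. SRSF3 against SRSF7 on chromatin then stood at -0.51. SRSF3 chromatin holds many low positions outside the locus, with a mean of 1.85 cDNAs per position.

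The comparison was repeated for each 100 nt bin, as a share of the whole file, in bins that reached 50 cDNAs when both files were added and 10 in each file. A bin was counted when its share differed more than 2-fold, and the background is every bin of the genome that met the same minimum. The minimum is a count and so a smaller share of a deeper file. Bins low in the deeper file were thus compared more readily, and SRSF3 chromatin is the deepest. The part of this in each background was not tested. In SRSF3 chromatin against cytoplasm 32 Rn45s bins were compared. Of these 6 were higher in chromatin (18.75%, background 13.1%), and 5 of them lay on the 5′ side. In cytoplasm 17 bins were higher (53.1%, background 58.0%), so their share was not above a background that the count minimum can raise. All 17 lay on the 3′ side. Bins listed in 1 file of a pair alone, with at least 50 cDNAs there, are outside these counts. Here 12 such bins with 43620 cDNAs were listed in chromatin and 1 with 911 in cytoplasm. With bins taken as a share of the locus instead, 14 bins were higher in chromatin and 14 lower. The lowest log2 ratios were at 4401 to 4500 (-4.17) and 3601 to 3700 (-3.81), and the highest at 2901 to 3000 (3.68) and 1701 to 1800 (2.25).

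SRSF3 chromatin against nucleoplasm gave 4 of 35 bins higher in chromatin (11.4%, background 5.4%) and 16 lower (45.7%, background 48.6%). The 4 lay on the 5′ side and the 16 on the 3′ side. Listed in chromatin alone were 10 bins with 24084 cDNAs, and in nucleoplasm alone 1 with 395. The highest ratios were at 1701 to 1800 (6.56) and 2201 to 2300 (4.03), and the lowest at 4401 to 4500 (-3.80) and 5101 to 5200 (-3.41). As a share of the locus the split was 16 higher and 12 lower. In both comparisons the median log2 ratio over all compared bins of the genome was below 0, at -0.91 against nucleoplasm and -1.45 against cytoplasm. Over the Rn45s bins it was 0.08 and -1.66. The count minimum favours bins low in the deeper SRSF3 chromatin, so part of the medians over all bins can come from it. Between SRSF3 nucleoplasm and cytoplasm few bins passed the fold. Of 32 bins 1 was higher in nucleoplasm (background 21.4%) and 5 lower (23.7%), with 4 and 5 as a share of the locus. The highest were 2901 to 3000 (2.94) and 101 to 200 (0.69), and the lowest 1701 to 1800 (-4.30), with 11 and 177 cDNAs, and 3801 to 3900 (-1.55).

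In SRSF7 chromatin against cytoplasm 15 of 32 bins were higher in chromatin, 14 of them on the 5′ side (background 35.3%), and 12 were lower, all on the 3′ side (23.9%). As a share of the locus these were 15 and 13. Chromatin alone listed 10 bins with 7982 cDNAs, and cytoplasm alone 2 with 3894. The highest ratios were at 2301 to 2400 (2.93) and 1701 to 1800 (2.82). The lowest were at 3901 to 4000 (-3.93) and 3501 to 3600 (-3.23). Against nucleoplasm, 26 of 35 bins were higher in chromatin (background 30.8%), among them all 16 bins compared on the 5′ side, and 3 were lower (28.6%). The split was 16 and 9 as a share of the locus. Chromatin alone listed 6 bins with 4066 cDNAs, and nucleoplasm alone 2 with 564. The highest were 1601 to 1700 (5.80) and 1701 to 1800 (4.36), and the lowest 3901 to 4000 (-2.17) and 4401 to 4500 (-1.96).

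SRSF7 nucleoplasm was below cytoplasm along most of the locus, with 25 of 33 bins lower (background 28.5%), 8 on the 5′ side and 17 on the 3′ side. As a share of the locus 6 were lower and 3 higher. The lowest were 3701 to 3800 (-3.20) and 3801 to 3900 (-3.04). The first 100 nt were the 1 bin that was higher in nucleoplasm (background 31.2%), with a log2 ratio of 1.52 (1.35 to 1.68). The bin next to it in the order, 701 to 800, was at -0.32.

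**Figure D4:**
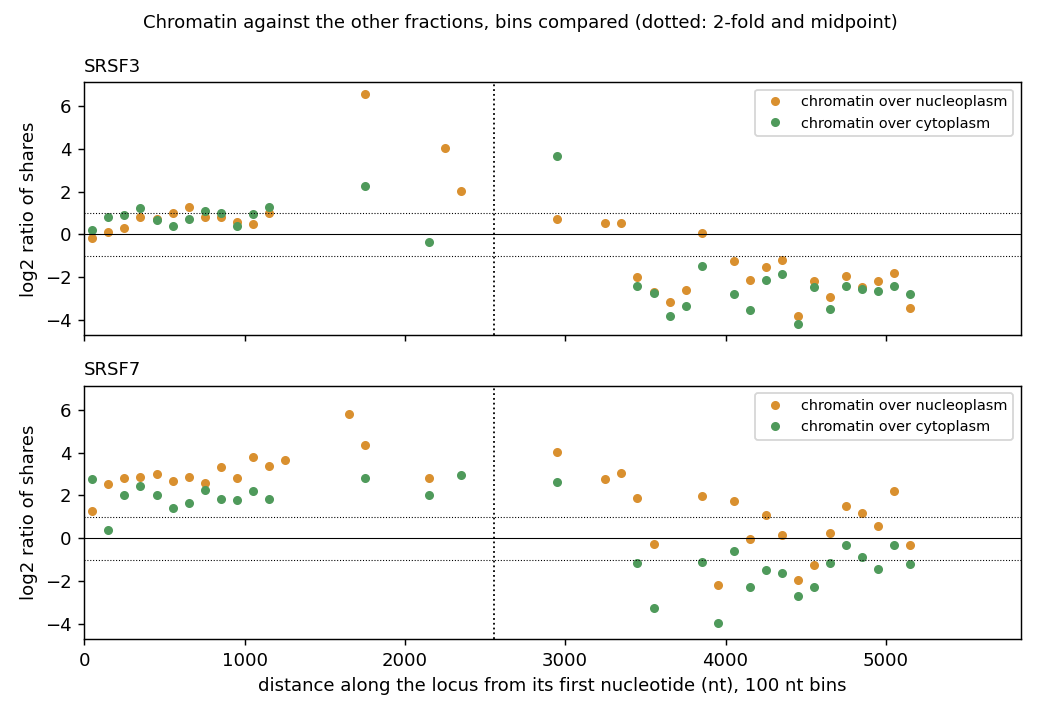
Log2 ratio of the chromatin share to the nucleoplasm or cytoplasm share of a file (vertical axis) for each 100 nt bin that met the count minimum (horizontal axis, nt from the first nucleotide), SRSF3 above and SRSF7 below. Most bins before nucleotide 3400 lie above 0, and most SRSF3 bins after it lie below 0, down to -4.17.

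Between the proteins, chromatin bins moved with the level of the locus, and the compared bins of the whole genome had a median of the same sign. SRSF3 chromatin held 1768665 listed cDNAs and SRSF7 chromatin 248498. The count minimum therefore let bins low in SRSF3 be compared more readily, and the part of this in the median over all bins was not tested. The median log2 ratio was -1.08 over the Rn45s bins and -0.94 over all bins. SRSF3 was lower at 24 of 41 bins (background 48.1%) and higher at 1 (3.11%), with 1501 to 1600 (-2.51) and 2101 to 2200 (-2.23) at one end and 2401 to 2500 (1.03) and 3501 to 3600 (0.82) at the other. Relative to the locus total, 2 bins were lower and 4 higher. In nucleoplasm SRSF3 was higher at 25 of 34 bins (background 32.9%) and lower at 1 (background 23.8%). The highest were 3401 to 3500 (3.32) and 3501 to 3600 (3.25), and the lowest 1701 to 1800 (-4.08) and 601 to 700 (-0.22). As a share of the locus the split was 6 higher and 7 lower. In cytoplasm 3 of 33 bins were higher in SRSF3 (background 35.6%) and 2 lower (background 14.6%), or 2 and 3 as a share of the locus. The bins 4001 to 4100 (1.45) and 4601 to 4700 (1.39) were highest and 2901 to 3000 (-2.48) and 1701 to 1800 (-1.32) lowest.

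Loci whose share moved most like Rn45s across the 6 files were sought among 140 others with at least 50 cDNAs in every file, where positions were joined at gaps of up to 10000 nt. Likeness was the Pearson correlation of the log2 share over 6 files, with a median of 0.06 over the 140. Of these loci 18 had a correlation above 0.8. The closest were on chromosome 2 at 5300185 to 5300420, minus strand (0.96), chromosome 8 at 15519772 to 15519931, plus strand (0.94), chromosome 3 at 61962969 to 61963390, plus strand (0.94), chromosome 3 at 5860367 to 5860808, plus strand (0.93), and chromosome 11 at 108872978 to 108873431, minus strand (0.92). All 5 were under 500 nt long, and no gene name was assigned to them because no mm9 annotation was used. The locus on chromosome 11 held 0.901%, 1.51% and 2.36% of SRSF3 chromatin, nucleoplasm and cytoplasm, and 1.64%, 0.661% and 2.63% for SRSF7. With 6 files, such likeness rests on few points.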

How the data were processed

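Signed values per nucleotide were taken from 6 lists, each the authors' pool of the 3 or 4 replicates of a group, per the labels. The deposited values are whole numbers of either sign with no scaling apparent, read here as cDNA counts with the sign as strand. Per the file headers, build mm9 was used, and listing required an FDR under 0.05 from 100 permutations over neighbourhoods of 15 nt. Not given in the sources used here are the aligner, the handling of reads from repeated genes and duplicate removal. The cell line was not checked against marker genes, since no mm9 annotation was used. No mm9 sequence was used, and that the interval is Rn45s was taken as given.

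Shares carry Clopper-Pearson intervals, and ratios conditional exact binomial intervals. Bins started at the first base of the interval and covered the genome on both strands, and bin calls were tested on simulated data. That simulation held counting error only, without the authors' threshold or spread between replicates. Its changed bins were expected above the count minimum, so it does not cover calls near that minimum. Bins named are the 5 highest per file and the 2 highest and lowest ratios per pair. Positions named are the 3 highest per file, and the like loci the 5 with the highest correlation. The members and lists were chosen with earlier results of these data known. Tables were computed with pandas 2.3.3 and numpy 2.4.6, intervals with scipy 1.17.1 and plots with matplotlib 3.10.9, all under Python 3.11.15.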

Additional observations from a re-analysis of the deposited data

Results flagged for a closer look

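With all listed positions counted, the whole-locus share moved in opposite directions in the 2 proteins. From chromatin to nucleoplasm the log2 ratio was 0.83 for SRSF3 (0.82 to 0.84) and -1.69 for SRSF7 (-1.72 to -1.66). From chromatin to cytoplasm it was 1.22 for SRSF3 (1.21 to 1.24) and -0.19 for SRSF7 (-0.20 to -0.17). The SRSF7 value to cytoplasm did not keep its direction, since chromatin over cytoplasm turned from 0.19 to -0.0571 with positions of at least 3 cDNAs, and both proteins were then higher in cytoplasm. Each value rests on 1 pooled file per group, so the difference between the proteins was not tested. Over all compared bins of the genome, the median log2 ratio of chromatin over nucleoplasm was -0.91 for SRSF3 and -0.14 for SRSF7. For chromatin over cytoplasm it was -1.45 and 0.22. Over the Rn45s bins the SRSF3 medians were 0.08 and -1.66, so against nucleoplasm the Rn45s bins did not share the sign of all bins. SRSF3 chromatin had 1768665 listed cDNAs, its nucleoplasm 315510 and its cytoplasm 257089. A fixed minimum of 10 cDNAs in each file therefore let bins low in SRSF3 chromatin be compared more readily. The part of this in the medians of all bins was not tested. The shape along the locus moved the same way in both proteins, away from the 5′ side.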

How the results depend on the processing

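No paired analysis was possible because replicates were pooled before deposit, and for the same reason none was left out. The 15 profile correlations were repeated with 50 and 200 nt bins, a minimum of 3 cDNAs and removal of each file's highest position. Over these, pairs of chromatin with another fraction stayed between 0.05 and 0.28 and the chromatin pair between 0.79 and 0.85. The shares of positions with a partner ran from 61.05% to 96.4% when the same nucleotide was required. Thinning to the smallest file moved none of the 9 whole-locus log2 ratios beyond its interval.

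In what follows, ratios are given in the order SRSF3 chromatin over nucleoplasm, chromatin over cytoplasm, nucleoplasm over cytoplasm, the same 3 for SRSF7, and SRSF3 over SRSF7 in chromatin, nucleoplasm and cytoplasm. With positions of at least 3 cDNAs they were -0.36, -0.49, -0.13, 1.28, -0.0571, -1.34, -0.51, 1.14 and -0.0704, so that SRSF7 chromatin over cytoplasm and SRSF3 over SRSF7 in cytoplasm turned. With positions counted they were -2.59, -3.37, -0.78, 1.36, 1.15, -0.20, -3.35, 0.60 and 1.18. Without the mitochondrial genome the 7 that moved were -0.98, -1.48, -0.51, 0.0572 and -1.62 within a protein, and 1.58 and 0.47 between proteins in nucleoplasm and cytoplasm. Without the highest position of each file the 5 that moved were -0.82, -1.20, 1.75, -1.56 and, between proteins in nucleoplasm, 1.498. The cause of these moves was not tested.

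The share of the locus on the 3′ side was also taken in 4 ways chosen after seeing the data. Divided after nucleotide 3400 it was 30.7% and 27.1% in SRSF3 and SRSF7 chromatin, 83.3% and 75.5% in nucleoplasm, and 85.25% in SRSF7 cytoplasm. With at least 3 cDNAs it was 86.7% and 80.2% in nucleoplasm and 91.4% and 86.7% in cytoplasm. By positions, SRSF3 gave 41.9%, 56.6% and 56.6% in chromatin, nucleoplasm and cytoplasm, and SRSF7 40.7%, 55.5% and 53.9%. Without the highest position it was 39.9% and 36.6% in chromatin, 90.2% in SRSF3 cytoplasm and 76.7% in SRSF7 nucleoplasm. Chromatin was below the other 4 files in every one.

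Taking bins as a share of the locus moved the calls most. The higher share among compared bins became 45.7% and 43.75% for SRSF3 chromatin over nucleoplasm and cytoplasm, 12.5% for SRSF3 nucleoplasm over cytoplasm, 45.7% for SRSF7 chromatin over nucleoplasm and 9.09% for SRSF7 nucleoplasm over cytoplasm. For SRSF3 over SRSF7 it became 9.76% in chromatin, 17.6% in nucleoplasm and 6.06% in cytoplasm. The lower share became 25.7% for SRSF7 chromatin over nucleoplasm, 18.2% for SRSF7 nucleoplasm over cytoplasm, and 4.88%, 20.6% and 9.09% for SRSF3 over SRSF7. Removing the level of the locus is what this scale does by construction. Other bin settings moved few calls. Bins shifted by 50 nt gave 18.9% higher for SRSF3 chromatin over nucleoplasm. For SRSF3 nucleoplasm over cytoplasm, 50 and 200 nt bins gave 1.69% and 5.88% higher, and for SRSF7 nucleoplasm over cytoplasm 1.75% and 0.0%. For SRSF7 chromatin over nucleoplasm they gave 3.51% and 5.26% lower, and for SRSF3 over SRSF7 in nucleoplasm 1.72% and 5.56% lower. The latter was 0.0% with at least 200 cDNAs. With 200 nt bins SRSF3 over SRSF7 gave 4.35% higher in chromatin and 11.1% lower in cytoplasm, and the chromatin value was 0.0% where the whole interval had to lie beyond the fold.

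The lowest number of cDNAs within 15 nt of a listed position was 128 in SRSF3 chromatin and 2 to 11 in the other 5 files. What a stretch without positions held below the authors' threshold is not shown, and the part of depth in this was not tested.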
